A study of Mus musculus with 6 samples.

Results

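The 10 genes described here mark macrophages of the skin: Adgre1, Cd68, Csf1r, Mrc1, Cd163, Lyz2, Mertk, Trem2, C1qa and Folr2. They were found by gene symbol in the deposited expression table. All 10 were among its 21959 genes and all 10 were among the 14875 genes with enough reads to be tested. The samples were full-thickness dorsal skin of male C57BL/6 mice that were shaved in telogen, the resting phase of the hair cycle, at 7 weeks of age. For 7 days the skin received each day either a vehicle of dipropylene glycol and distilled water (3 mice) or 3% rebamipide, a drug developed for gastric ulcers (3 mice). Poly-A RNA of each animal gave 1 library.

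Macrophages are phagocytes that live in the dermis, around hair follicles and in fat, where they clear dying cells, debris, lipid and red cell products. They depend for survival on the receptor encoded by Csf1r, which binds the ligands encoded by Csf1 and Il34. Resident dermal macrophages are known for the endocytic receptors encoded by Mrc1, Cd163 and Folr2 and for making the complement protein C1q.

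Promoters are shown for the gene with the largest fitted difference (Mrc1), for a gene that followed the pattern shared by most of the 10 (Cd68) and for the gene that did not (Mertk). They are RefSeq sequences of the GRCm38.p6 build, from 250 bases before to 50 bases after the start of transcription. Of the 10 genes 7 matched the RefSeq table, with 8 promoters. Capitals mark GAGGAA on either strand, the core bound by PU.1, the myeloid transcription factor encoded by Spi1.
Mrc1, chr2:14229164-14229463, + strand: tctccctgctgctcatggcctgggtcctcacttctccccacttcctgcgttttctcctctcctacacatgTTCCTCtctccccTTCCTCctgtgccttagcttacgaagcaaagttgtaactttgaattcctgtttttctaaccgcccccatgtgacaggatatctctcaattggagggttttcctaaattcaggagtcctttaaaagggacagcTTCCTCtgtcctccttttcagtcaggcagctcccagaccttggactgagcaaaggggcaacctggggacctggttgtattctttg
Cd68, chr11:69666121-69666420, - strand: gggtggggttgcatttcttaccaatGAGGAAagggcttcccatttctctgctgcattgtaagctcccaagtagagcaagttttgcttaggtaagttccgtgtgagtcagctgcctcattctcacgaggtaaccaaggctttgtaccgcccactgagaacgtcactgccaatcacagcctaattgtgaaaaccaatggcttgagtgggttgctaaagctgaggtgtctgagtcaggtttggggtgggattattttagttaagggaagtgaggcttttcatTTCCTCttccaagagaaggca
Mertk, chr2:128698665-128698964, + strand: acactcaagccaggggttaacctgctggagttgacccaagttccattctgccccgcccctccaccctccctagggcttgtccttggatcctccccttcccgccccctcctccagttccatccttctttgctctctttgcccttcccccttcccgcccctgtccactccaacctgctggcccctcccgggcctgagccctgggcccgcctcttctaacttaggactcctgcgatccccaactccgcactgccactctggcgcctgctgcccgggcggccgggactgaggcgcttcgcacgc
GAGGAA was in a promoter of 3 of the 7 genes (Mrc1, Cd68 and Trem2), and 28.3% of 32851 mouse promoters of this length hold it. TGANTCA, searched on both strands as the AP-1 motif, was in a promoter of 3 of the 7 (Cd68, Trem2 and Folr2) and in 7.81% of all promoters. The E-box CACGTG was in 0 of the 7 and in 7.15% of all promoters. These matches describe letters in a window only.

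The libraries held 32709801 to 39915276 counts. Values are given as CPM, the count relative to the library total after scaling that total with edgeR's TMM factor. The libraries did not hold the same mixture of tissue. Krt14, a keratin of the basal epidermis, had 26099 to 64371 counts in the vehicle libraries, 10954 and 6102 in rebamipide libraries 1 and 2, and 0 in the library labelled rebamipide 3, which thus lacked a defining marker of skin. Ucp1, the uncoupling protein of brown fat, had 0 counts in each vehicle library and 81048 to 220449 in the rebamipide libraries. Because whole tissue was sequenced, fewer macrophages and less RNA of these genes per macrophage cannot be told apart.

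The comparison of the groups asked whether macrophage genes were higher or lower after rebamipide. None of the 10 passed the test. At an adjusted p-value under 0.05 (edgeR's quasi-likelihood test, Benjamini-Hochberg adjustment over all genes tested), 0 of the 10 were higher and 0 were lower, while 14.1% of all genes tested were higher and 6.51% were lower. Mrc1 was the 1 gene of the 10 with an unadjusted p-value under 0.05, which 39.7% of all genes tested had. It was also the 1 gene that DESeq2 called lower, a call given to 17% of all genes by that tool, and limma-voom called 0. The log2 fold change was negative for 9 of the 10 genes. Their median was -0.60, against -0.17 for all genes tested, of which 56.9% were negative. The groups overlapped for all 10 genes, whereas 24% of all genes tested had every rebamipide library below every vehicle library and 24.5% had every one above.

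**Figure D1:**
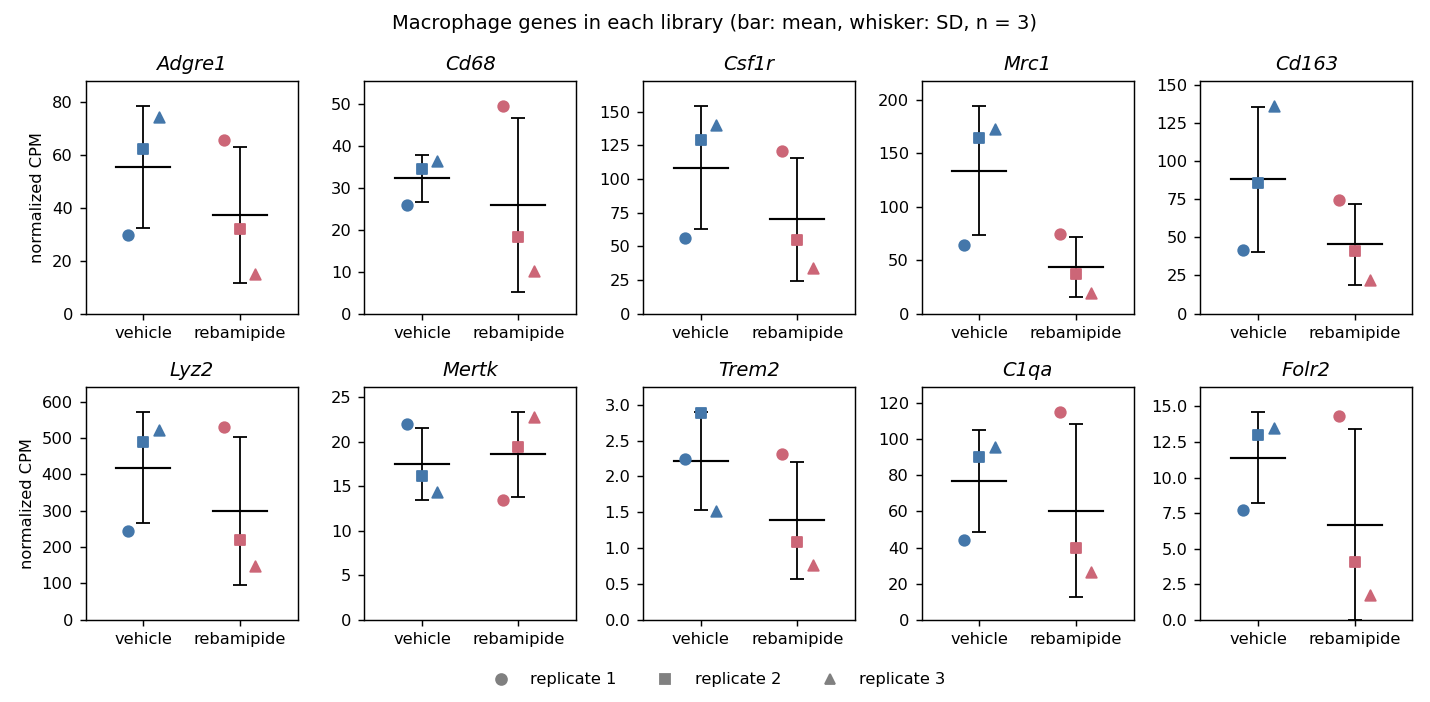
Normalized CPM (y axis, from 0 in each panel) of the 10 macrophage genes in the 3 vehicle and 3 rebamipide libraries, with point shape giving the replicate, horizontal bars the mean and whiskers the SD. The groups overlap in every panel, and rebamipide library 1 lies above the other rebamipide libraries for every gene other than Mertk.

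Much of the spread lay inside the groups and was shared by the genes. In 9 of the 10 genes rebamipide library 3 was the lowest of all 6, and in 9 rebamipide library 1 was the highest of its group. Vehicle library 1 was the lowest of the vehicle group in 8 genes. Rebamipide library 1 was above vehicle library 1 in 9 genes and above every vehicle library in 4 (Cd68, Lyz2, C1qa and Folr2). Rebamipide libraries 2 and 3 were both below every vehicle library in 8 genes, the exceptions being Adgre1 and Mertk. Mertk ran the other way within the rebamipide group, with its lowest value in library 1 and its highest in library 3.

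**Figure D2:**
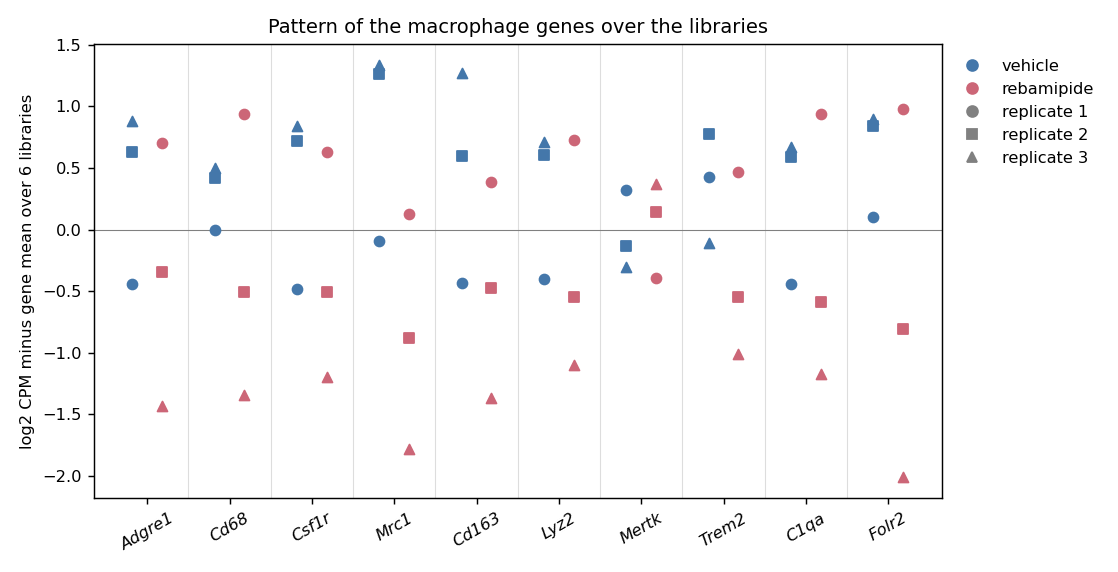
Log2 CPM of each macrophage gene minus its own mean over the 6 libraries (y axis), with color giving the group and shape the replicate. For 9 genes rebamipide library 3 is the lowest and rebamipide library 1 the highest of the rebamipide group, and for Mertk this order is turned around.

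Csf1r, the receptor that macrophages need to survive, had 55.9, 129 and 140 CPM in the vehicle libraries and 121, 55 and 34 CPM in the rebamipide libraries. Rebamipide library 1 lay within the vehicle range and the others lay below it. The log2 fold change was -0.63 (standard error 0.557, 95% interval -1.98 to 0.72, adjusted p = 0.423, edgeR), so that neither a fall nor a rise was shown.

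Adgre1 encodes F4/80, the adhesion receptor by which mouse macrophages are commonly stained. Its CPM was 29.7, 62.3 and 74.2 with vehicle and 65.4, 31.8 and 14.9 with rebamipide. Only rebamipide library 3 fell outside the vehicle range. Its log2 fold change was -0.57 ± 0.59 (SE, edgeR adjusted p = 0.495).

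Cd68 encodes a glycoprotein of endosomes and lysosomes that is abundant in phagocytes. It had 25.9, 34.5 and 36.5 CPM in the vehicle libraries and 49.5, 18.2 and 10.1 CPM in the rebamipide libraries. The rebamipide values lay on both sides of the vehicle range and none lay within it. Its fitted log2 fold change of -0.32 ± 0.574 (SE, edgeR adjusted p = 0.702) became 0.08 without rebamipide library 3.

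Lyz2 encodes lysozyme M, a bactericidal enzyme of macrophages and neutrophils. It had 243, 489 and 523 CPM in the vehicle libraries and 530, 219 and 149 CPM in the rebamipide libraries. The highest and the lowest of the 6 values were both from rebamipide libraries. For Lyz2 the log2 fold change was -0.48 ± 0.55 (SE, edgeR adjusted p = 0.534). Its near-identical copy Lyz1, with which Lyz2 may share reads, had 12.4 to 34.6 CPM with vehicle and 6.45 to 45.7 CPM with rebamipide. How far shared reads affect the Lyz2 values was not measured.

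Mrc1 encodes the mannose receptor CD206, an endocytic receptor of resident macrophages that lymphatic endothelium also makes. It is ENSMUSG00000026712, at 14234203 to 14336868 of chromosome 2 in the deposited table, whose build the processing notes give as GRCm39. Its CPM was 64.2, 164 and 173 in the vehicle libraries and 74.7, 37.1 and 19.8 in the rebamipide libraries. Only rebamipide library 1 reached the vehicle range, just above its lowest value. The mean was 133.9 ± 60.5 CPM with vehicle and 43.9 ± 28.1 CPM with rebamipide (SD, n = 3 libraries each). The fit gave a log2 fold change of -1.61 (standard error 0.59, 95% interval -3.04 to -0.18, unadjusted p = 0.033, adjusted p = 0.0972, edgeR). The study's cut-offs (p under 0.05 without adjustment, and a log2 fold change beyond 1 in either direction) were made for DESeq2. Mrc1 was the 1 member that met them in DESeq2, as 18.2% of all genes did on the lower side, and also in the edgeR fit, where the share was 14.5%. DESeq2 gave an adjusted p-value of 0.0263. The log2 fold change was -2.23 without rebamipide library 1 (adjusted p = 0.0441, edgeR) and -1.25 without library 3 (adjusted p = 0.18, edgeR).

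Cd163 encodes the scavenger receptor for hemoglobin bound to haptoglobin. It had 41.7, 85.7 and 136 CPM with vehicle and 74.1, 40.8 and 21.8 CPM with rebamipide. Rebamipide library 1 lay within the vehicle range, which was itself wider than the difference between the means. The fitted log2 fold change was -0.95 (standard error 0.578, 95% interval -2.35 to 0.45, adjusted p = 0.259, edgeR).

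Folr2, the gene of folate receptor beta, marks resident macrophages. It had 7.71, 13 and 13.5 CPM with vehicle and 14.3, 4.05 and 1.72 CPM with rebamipide. Rebamipide library 1 held the highest of the 6 values and libraries 2 and 3 the lowest. Folr2 had a log2 fold change of -0.77 ± 0.759 (SE, edgeR adjusted p = 0.474), and leaving out rebamipide library 1 gave -1.98 (adjusted p = 0.0461, edgeR), whereas leaving out library 3 gave -0.30 (adjusted p = 0.765, edgeR).

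C1qa encodes the A chain of C1q, which starts the classical complement cascade and tags debris for uptake. Its CPM was 44.2, 90.2 and 95.6 with vehicle and 115, 39.7 and 26.6 with rebamipide. As for Lyz2, the extremes were both rebamipide libraries. For C1qa the log2 fold change was -0.34 ± 0.601 (SE, edgeR adjusted p = 0.693), and without rebamipide library 3 it was 0.02. The genes of the other C1q chains had much the same profile. C1qb had 43.9, 85.1 and 82.8 CPM with vehicle and 109, 39.5 and 26.7 with rebamipide, and C1qc had 36.5, 71.1 and 75.2 and then 81.8, 32.1 and 19.4 CPM.

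Trem2, which encodes a lipid-sensing receptor of macrophages, had the fewest reads of the 10, from 20 to 142 counts a library. Its CPM was 2.24, 2.88 and 1.52 with vehicle and 2.31, 1.09 and 0.763 with rebamipide. Rebamipide library 1 lay within the vehicle range and the others lay below it. Trem2 had a log2 fold change of -0.67 ± 0.538 (SE, edgeR adjusted p = 0.377). Tyrobp, the adaptor through which this receptor signals, had 9.76 to 30.9 CPM with vehicle and 6.64 to 27.3 CPM with rebamipide.

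Mertk encodes a receptor tyrosine kinase by which macrophages take up apoptotic cells (ENSMUSG00000014361, chromosome 2, 128540876 to 128644814). It had 22, 16.1 and 14.3 CPM in the vehicle libraries and 13.4, 19.4 and 22.8 CPM in the rebamipide libraries. The highest and the lowest value were both from libraries of the rebamipide group, as for Lyz2, but from the opposite libraries. The log2 fold change was 0.09 (standard error 0.296, 95% interval -0.63 to 0.81, adjusted p = 0.839, edgeR). Scaled by library totals without TMM, Mertk was at -0.56 (adjusted p = 0.134, edgeR), so its sign depended on the scaling.

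**Figure D3:**
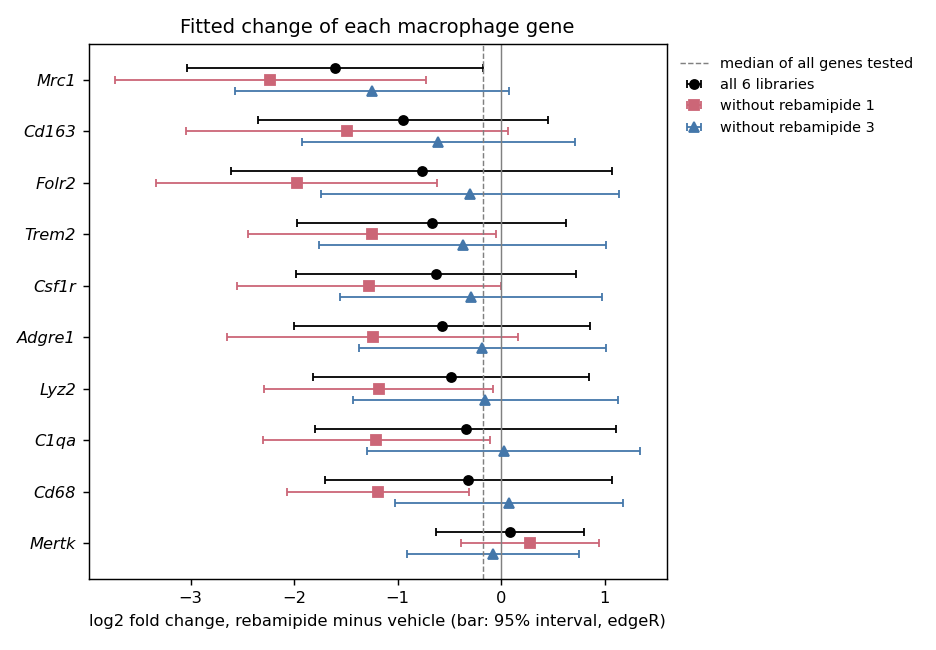
Fitted log2 fold change of each macrophage gene, rebamipide minus vehicle (x axis, with 95% intervals from edgeR), in all 6 libraries and in fits that leave out rebamipide libraries. With all libraries, the interval of Mrc1 alone leaves out 0.

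The size of the differences depended on which libraries entered. When each was left out in turn, the median log2 fold change of the 10 genes was -0.82, -0.47 and -0.32 without vehicle libraries 1, 2 and 3, and -1.24, -0.47 and -0.24 without rebamipide libraries 1, 2 and 3 (edgeR). Without vehicle library 3, for example, Adgre1 was at -0.27, Cd163 at -0.46 and C1qa at -0.12, and without rebamipide library 2 Cd68 was at -0.11 and C1qa at -0.10. Without rebamipide library 1, edgeR called 2 of the 10 genes lower (Mrc1 and Folr2, against 12.8% of all genes tested). DESeq2 without it called 8 lower, against 27.3% of all genes, the exceptions being Adgre1 (adjusted p = 0.0562, DESeq2) and Mertk (adjusted p = 0.41, DESeq2). The median log2 fold change of the 10 genes was then -1.24 in either tool, against -0.21 for all genes in edgeR. With library 1 as the only rebamipide library kept, and assumed to vary like the vehicle libraries, edgeR called 0 of the 10 genes. In that fit Mrc1 was at -0.83 and Cd163 at -0.24, and the sign of each of the other 8 was turned. Without rebamipide library 3 the median of the 10 genes moved the other way, to -0.24 against -0.14 for all genes. edgeR then called 0 of the 10 higher and 0 lower, with 0 at an unadjusted p-value under 0.05, while 6.6% of all genes were higher and 2.49% lower.

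Levels of different genes were compared in FPKM, which is per kilobase of gene length. Lyz2 was the highest of the 10 genes in every library, C1qa was next and then Cd68, and Trem2 was the lowest in every library. In the vehicle group Lyz2 had 392 ± 135 FPKM, C1qa 90.8 ± 31.7, Cd68 31.7 ± 4.77 and Trem2 0.557 ± 0.175 (SD, n = 3). Mrc1, Csf1r, Adgre1 and Cd163 lay close together in that group, at 25.8 ± 11.2, 23.1 ± 9.34, 21.1 ± 8.32 and 19.8 ± 10.2 FPKM, and did not differ beyond their spread. Folr2 had 9.1 ± 2.36 and Mertk 5.01 ± 1.3 FPKM. In the rebamipide group the same order began with Lyz2 at 194 ± 157, C1qa at 50.2 ± 45.8 and Cd68 at 17.8 ± 16.4 FPKM, and Mrc1 had 5.86 ± 4.47. Ranked within libraries from the highest, Mrc1 was at place 4 in each vehicle library and at place 7, 7 and 8 in the rebamipide libraries. Mertk was at place 8 or 9 in 5 libraries and at place 5 in rebamipide library 3.

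Counts were also divided by those of other genes in the same library, which takes the scaling out of the comparison. Divided by Csf1r, Mrc1 gave ratios of 1.15, 1.27 and 1.24 for vehicle and 0.617, 0.675 and 0.583 for rebamipide. These ratios were close together within each group and did not overlap, as on the lower side for 9.71% of all genes tested. The ratios of the other 8 genes to Csf1r overlapped, with Adgre1 at 0.484 to 0.532 and 0.438 to 0.579 and Lyz2 at 3.72 to 4.35 and 3.98 to 4.37. Against the sum of 8 pan-leukocyte genes Mrc1 was again the 1 member whose groups did not overlap, at 0.414 to 0.487 with vehicle and 0.22 to 0.263 with rebamipide (8.61% of all genes tested were lower in this way). Both denominators were added after the data were seen, and the ratios carry no test.

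Relative to Ptprc, the gene of the common leukocyte antigen CD45, the values differed in another way. Ptprc itself had 8.07, 26.3 and 30.9 CPM in the vehicle libraries and 10.3, 6.16 and 2.52 CPM in the rebamipide libraries (log2 fold change -1.78, adjusted p = 0.108, edgeR). Divided by Ptprc, 5 of the 10 genes had all rebamipide ratios above all vehicle ratios: Adgre1, Csf1r, Cd163, Lyz2 and C1qa. Of all genes tested 30.4% did the same, and the median log2 difference relative to Ptprc was 1.07 for the 10 genes and 1.6 for all genes. Lyz2 had 16.9 to 30.1 counts per Ptprc count with vehicle and 35.5 to 59 with rebamipide, whereas Mrc1 had 5.61 to 7.96 and 6.03 to 7.88. Relative to the 8 pan-leukocyte genes, of which Ptprc is 1, none of the 10 was higher without overlap.

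**Figure D4:**
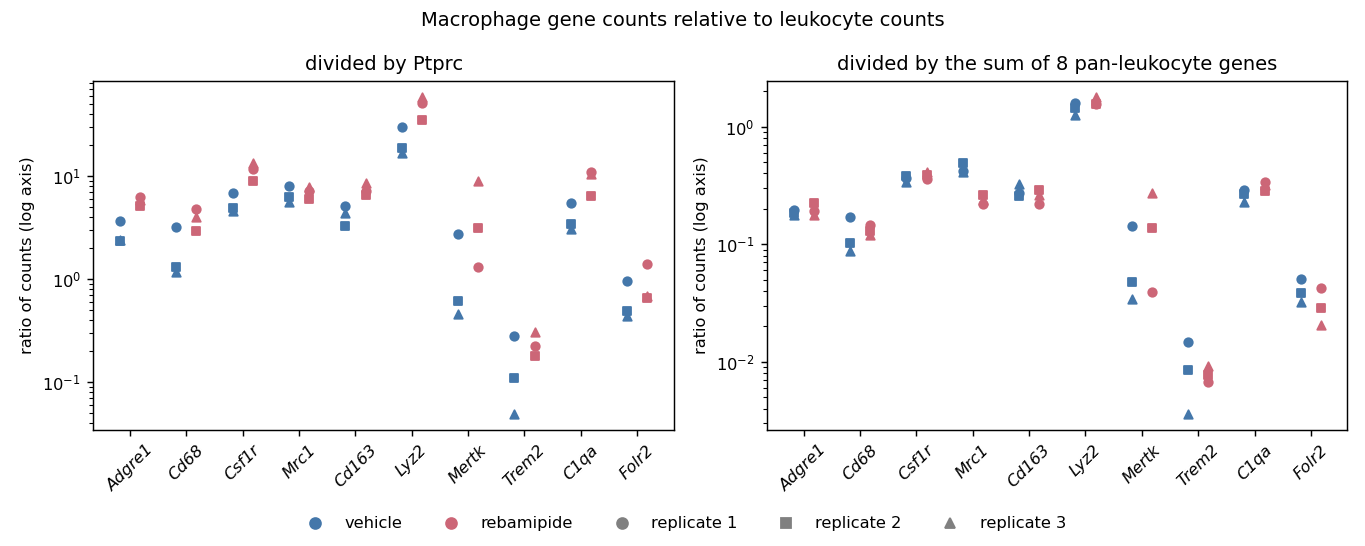
Counts of each macrophage gene divided by those of Ptprc and by the sum of 8 pan-leukocyte genes in each library, on log axes, with color giving the group and shape the replicate. Against the 8 genes Mrc1 is the 1 gene with all rebamipide points below all vehicle points, and against Ptprc the genes Adgre1, Csf1r, Cd163, Lyz2 and C1qa have all rebamipide points above.

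Other genes of the macrophage lineage were followed in 12 lists by role, with 115 distinct genes. Of these 108 were tested, of which 8 rose and 5 fell by the same edgeR test. For all genes tested the shares were 14.1% higher and 6.51% lower, against which the counts of each list below are to be read. The 5 tested ligands and receptors of the colony-stimulating factors held 0 calls (median log2 fold change -0.40). Csf1 had 33.7, 49.9 and 74.9 CPM with vehicle and 64.6, 26.3 and 20.8 with rebamipide, and Csf2rb, a chain shared by cytokine receptors, had 16.5 to 50.1 and 31.8 to 42.9 CPM. Of 8 transcription factors, Nr1h3 rose and 0 fell (median -0.70). Nr1h3, which encodes the oxysterol receptor LXR alpha and is also expressed in fat, had 7.49, 15.5 and 22.7 CPM with vehicle and 56.2, 94.7 and 107 with rebamipide (log2 fold change 2.50 ± 0.47 SE, edgeR adjusted p = 0.0194). Maf, a factor of resident macrophages, had 111 to 189 CPM with vehicle and 15.5 to 78.9 CPM with rebamipide without overlap (log2 fold change -1.85, adjusted p = 0.0772, edgeR).

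Further genes of macrophage identity gave 0 calls in 4 lists with 40 genes in all. Their median log2 fold changes were -0.37 for 12 pan-macrophage genes, -0.64 for 10 resident macrophage genes, -0.35 for 10 complement genes and -0.93 for 8 genes of alternative activation. At an unadjusted p-value under 0.05 (edgeR) the 4 lists held 2 of the 40 genes, and DESeq2 called 2. Among all genes tested the shares were 39.7% and 35.3%. Ctss, a cathepsin of antigen-presenting cells, had 42.5, 98.8 and 107 CPM with vehicle and 103, 39.4 and 17.9 with rebamipide. F13a1, the coagulation factor gene that marks resident macrophages, had 103, 246 and 285 and then 153, 59.8 and 20.8 CPM. Both were highest of the rebamipide group in library 1, as most members were. Lgmn, the gene of the lysosomal protease legumain, had 81.7, 108 and 103 and then 137, 86.6 and 67.1 CPM (log2 fold change -0.01). Selenop, a selenoprotein gene, had 396, 817 and 983 and then 815, 810 and 777 CPM (log2 fold change 0.13), with rebamipide values close to each other. Of the genes of alternative activation, Retnla had 56.2, 169 and 314 and then 212, 51 and 28.3 CPM and the lectin gene Mgl2 28.5, 105 and 116 and then 80.3, 31.8 and 15.8 CPM. C4b, a complement gene, had 205, 345 and 548 and then 534, 89.1 and 69 CPM. C3, the central complement component, did not have the low value in rebamipide library 3, at 314, 909 and 1560 and then 1560, 1120 and 1280 CPM.

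Of 10 genes of apoptotic cell uptake, the process Mertk serves, 0 rose and Tyro3 fell (median -0.71). Tyro3, a receptor of the same family as Mertk, had 21.2, 21.9 and 23.9 CPM with vehicle and 9.19, 5.03 and 2.06 with rebamipide (log2 fold change -2.04 ± 0.534 SE, edgeR adjusted p = 0.044). Axl, the remaining receptor of that family, had 137 to 236 and 68.5 to 176 CPM (adjusted p = 0.221, edgeR). Gas6, a ligand of these receptors, had 125, 274 and 365 CPM with vehicle and 324, 82.9 and 49.3 with rebamipide, with the high library 1 and low library 3 of most members.

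The list of Trem2 partners and genes of lipid-laden macrophages split, with 3 of 12 genes higher and 3 lower (median -0.73). Lipa, the lysosomal acid lipase gene, had 28.5 to 47 CPM with vehicle and 130 to 188 CPM with rebamipide (log2 fold change 2.04 ± 0.279 SE, edgeR adjusted p = 0.0103). Ctsb and Ctsd, which encode lysosomal cathepsins, rose by 1.03 and 0.87 on the log2 scale, and both calls were lost with scaling by total counts alone (adjusted p = 0.206 and 0.321, edgeR). Gpnmb, which melanocytes also express, fell by 3.05 on the log2 scale, Fabp5, which keratinocytes also express, fell by 1.88, and the tetraspanin gene Cd9 fell by 2.06. Apoe, the apolipoprotein gene, had 964 to 1510 and 1230 to 1320 CPM, and the lipoprotein lipase gene Lpl had 469 to 931 and 1000 to 3950 CPM without overlap (adjusted p = 0.0598, edgeR). Of 9 scavenger receptor genes Cd36, a fatty acid transporter gene that fat and endothelium also express, rose and 0 fell (median -1.06). Cd36 had 279 to 790 CPM with vehicle and 1160 to 3550 with rebamipide (log2 fold change 2.36 ± 0.595 SE, edgeR adjusted p = 0.0403), and this call too was lost with total counts alone (adjusted p = 0.0516, edgeR). Scarb1 had 62.3 to 101 and 99.8 to 149 CPM, and Scara5 80.2 to 273 and 27.5 to 132 CPM.

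Of 9 monocyte and recruitment genes 0 rose and Ccr2 fell (median -0.71). Ccr2, the chemokine receptor of recruited monocytes, had 10.6, 44.9 and 31.2 CPM with vehicle and 8.66, 7.72 and 5.76 with rebamipide (log2 fold change -1.97 ± 0.538 SE, edgeR adjusted p = 0.0489). Vcan, which encodes the matrix proteoglycan versican, had 47.6 to 90.5 and 2.82 to 35.5 CPM without overlap (adjusted p = 0.147, edgeR), and Ear2 4.89 to 54.7 and 1.22 to 19.4 CPM. Of 7 tested genes of inflammatory activation Nos2 rose and 0 fell (median -1.26). Nos2, the inducible nitric oxide synthase gene, had 1.4, 1.77 and 1.69 CPM with vehicle and 11.5, 14 and 17.2 with rebamipide (log2 fold change 3.13 ± 0.298 SE, edgeR adjusted p = 0.00939). Within the rebamipide group Nos2 was lowest in library 1 and highest in library 3, the reverse of most members. Other genes of the same list lay lower on average with rebamipide without a call, with Il1a at 4.19 to 16.7 and 0.0763 to 5.3 CPM, the costimulatory gene Cd86 at 5.37 to 13.9 and 1.76 to 5.66 CPM, Il1b at 2.17 to 8.83 and 0.382 to 5.4 CPM and Tnf at 1.54 to 3.16 and 0.305 to 1.81 CPM. Of 9 tested relatives of the members 2 rose and 0 fell (median -0.15). These were Slc19a1, a folate carrier gene (mean 7.037 CPM with vehicle and 30.13 with rebamipide, adjusted p = 0.0205, edgeR), and Adgre5, a relative of Adgre1 (log2 fold change 1.04, adjusted p = 0.0382, edgeR), whose call was lost with total counts alone (adjusted p = 0.218, edgeR). Mrc2, a relative of Mrc1, had 23 to 45.7 and 17.4 to 39.5 CPM, and Kit, a receptor related to Csf1r, 23.5 to 61.9 and 18.7 to 26.5 CPM.

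None of these 13 calls held in every fit that left out 1 library, though all 13 genes kept their direction in these fits. The log2 fold change ranged over them from 2.98 to 3.27 for Nos2, from 1.81 to 2.19 for Lipa, from 0.95 to 1.13 for Ctsb and from -2.81 to -1.68 for Cd9. Without vehicle library 2 edgeR called 0 of all genes higher and 0 lower, and without rebamipide library 2 it called 1 higher and 0 lower. With all 6 libraries DESeq2 called all 13 genes (adjusted p = 2.48e-18 to 0.0096, DESeq2). Whole tissue was sequenced, and which cell types these 13 changes came from was not tested.

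The genes whose pattern over the 6 libraries was most like the mean of the 10 members were Prom1, Colec11, H2-DMb1, Dab2 and Abcc3, of 13368 genes outside the members with a mean of at least 50 counts. The root mean square difference of their centred log2 CPM from the member mean was 0.079 to 0.121. Among the members Lyz2 was the nearest to that mean (0.135) and Mertk the farthest (0.96). H2-DMb1, which encodes a chain of the complex that loads peptides on class II molecules, had 15.5, 26.3 and 30.9 CPM with vehicle and 24.9, 11.3 and 6.87 with rebamipide. Dab2, an endocytic adaptor gene, had 61.5, 125 and 122 and then 96.4, 51.9 and 31.7 CPM. None of the 5 passed the test between the groups (adjusted p = 0.261 to 0.475, edgeR).

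Marker lists of other cell types moved with the macrophage genes or against them. The mean log2(CPM + 0.1) of the 10 members was 4.89, 5.66 and 5.70 in the vehicle libraries and 5.58, 4.52 and 3.82 in the rebamipide libraries. The 8 pan-leukocyte genes put the libraries in the same order, at 3.94, 5.14 and 5.41 and then 5.10, 3.78 and 2.99. So did the 8 fibroblast genes, at 9.11, 9.78 and 10.24 and then 9.56, 7.92 and 7.05, and the 8 mast cell genes, at 2.88, 3.29 and 4.09 and then 3.21, 1.82 and 1.56. The 7 skeletal muscle genes were also high in rebamipide library 1 and low in library 3, at 9.16, 11.20 and 11.48 and then 11.84, 9.60 and 4.76. The 7 basal keratinocyte genes were at 7.97, 8.48 and 8.30 and then 6.89, 6.07 and 0.22, and the 7 suprabasal keratinocyte genes at 6.92, 8.63 and 8.80 and then 6.70, 6.21 and -1.57, so both had every rebamipide library below every vehicle library. The 6 T cell genes were at 2.06 to 3.14 and 0.54 to 2.41, and the 8 dendritic cell genes at 1.00 to 2.90 and 0.45 to 2.12. Of these 8 genes 7 had a negative log2 fold change and 0 were called lower. The 1 gene called higher was Zbtb46, at 5.63 to 12.7 CPM with vehicle and 25.8 to 53 CPM with rebamipide (adjusted p = 0.0195, edgeR). The brown adipocyte list was at 1.28 to 2.40 with vehicle and at 7.27, 8.74 and 8.41 in the rebamipide libraries. The red blood cell list, whose hemoglobin is a ligand of the Cd163 receptor, was at 1.79 to 4.14 and 4.92 to 5.96, with 3 of 5 genes called higher. The share of counts from mitochondrially encoded genes was 2.59, 4.28 and 5.36% in the vehicle libraries and 13.3, 19.4 and 22% in the rebamipide libraries. Within the rebamipide group it was higher where the mean of the members was lower, and within the vehicle group it was lowest where that mean was lowest.

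The 7 lymphatic endothelial genes, of interest for Mrc1, were at 3.15, 4.01 and 4.88 with vehicle and at 3.67, 2.67 and 1.74 with rebamipide, with 0 of 7 called. Their defining gene Prox1 had 1.24 to 5.9 CPM with vehicle and 0.458 to 2.04 CPM with rebamipide. The summed level of the 8 neutrophil genes, of interest for Lyz2, was 5.95 to 17.6 CPM with vehicle and 4.29 to 6.78 CPM with rebamipide, with S100a8 called lower of the 5 tested (adjusted p = 0.0427, edgeR). Of the 5 log2 fold changes 4 were negative, and S100a9 was at -0.14 (adjusted p = 0.883, edgeR). The defining neutrophil gene Ly6g was at 0 counts in 5 of the 6 libraries. The 6 genes of the Langerhans cell list had a mean of 5.11 ± 0.66 with vehicle and 3.98 ± 1.4 with rebamipide (SD, n = 3), with 0 of 6 called and 4 of 6 log2 fold changes negative. Among them Cd207 had 9.09 to 43.4 CPM with vehicle and 11.5, 5.65 and 0 with rebamipide, and Ltc4s 0.861 to 2.67 and 3.69 to 5.22 CPM. The part that these cell types, the tissue mixture and the mitochondrial share have in the macrophage gene values was not tested.

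**Figure D5:**
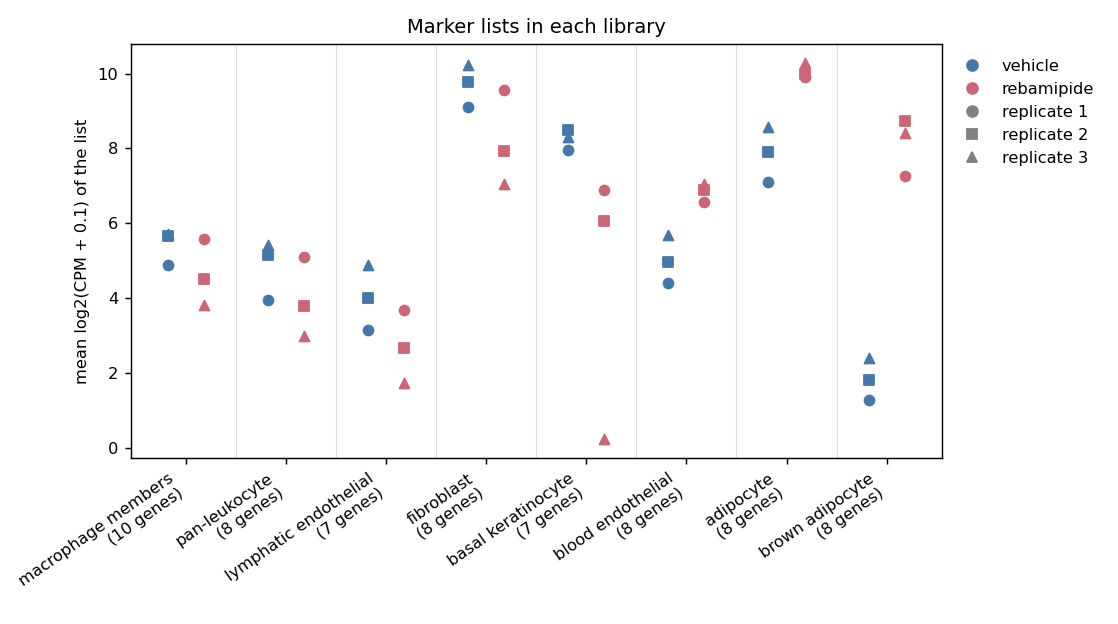
Mean log2(CPM + 0.1) of marker lists in each library (y axis), with color giving the group and shape the replicate. The macrophage, pan-leukocyte and fibroblast lists share their order of libraries, while the blood endothelial, adipocyte and brown adipocyte lists have all rebamipide points above all vehicle points.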

How the data were processed

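RNA of full-thickness dorsal skin from 3 vehicle-treated and 3 rebamipide-treated mice was sequenced as 1 library per animal. The authors deposited 1 table with whole-number read counts per gene for each library and FPKM values, which equal the count divided by gene length and by the sum of counts in the library. The submitters' processing notes name fastp 0.22.0, HISAT2 2.1.0, HTSeq 0.9.1 and the GRCm39 build, and whether counting used strand is not given in the sources used here. Library totals were 32709801 to 39915276 counts, and a floor of 3 counts corresponds to 0.0601 to 0.117 CPM, which covers counting error only. Groups and replicate numbers were taken from the sample titles.

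Counts were filtered by expression (filterByExpr), scaled by TMM and tested, two-sided, with the quasi-likelihood test of edgeR 4.0.16 in R 4.3.3, with Benjamini-Hochberg adjustment over all 14875 genes tested and a threshold of 0.05. DESeq2 1.42.0, with independent filtering off, and limma 3.58.1 were alternatives. List means used log2(CPM + 0.1). The code was tested on simulated data. The members and lists were chosen with earlier results of these data known. The text names all members, and of each list at most 4 genes past the threshold and the 2 with the highest mean CPM of the rest, and the 5 genes nearest in pattern. Of the first 2 genes of each marker list only some are printed. C1qb, C1qc, Tyrobp, Ctsd, Cd9, Il1b, Tnf, Ltc4s, Ly6g and Lyz1 were added to the text with their values known. Some genes that this rule or a count would name are not reported here. The p-values set the difference of the groups against the spread between these libraries, which also holds differences in tissue mixture.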

Additional observations from a re-analysis of the deposited data

How the results depend on the processing

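With 3 libraries a group, the intervals of most macrophage genes were wide, and the missing calls do not show that these genes were unaltered. Of 180 alternative values for the 10 genes 160 kept both direction and side of the threshold, 5 passed it (Mrc1 in 4 and Folr2 in 1) and 15 changed sign. The count of the 10 genes called higher was 0 in every alternative run. The count called lower was 1 with DESeq2, 1 with limma on log2(FPKM + 1), 1 on log2(FPKM + 0.1) and 1 with the thresholds of the study applied to edgeR, it was 0 to 2 when 1 library was left out in edgeR and 0 to 8 in DESeq2, an alternative chosen after seeing the data. Mertk changed sign with total counts alone (-0.561), on log2(FPKM + 1) (-0.437) and log2(FPKM + 0.1) (-0.529), without vehicle library 3 (-0.035) and without rebamipide library 3 (-0.078), as did Cd68 (0.076) and C1qa (0.023) without that library. Over the fits that left out 1 library, Cd68 ranged from -1.186 to 0.076, C1qa from -1.204 to 0.023 and Mertk from -0.078 to 0.280. With rebamipide library 1 alone in its group, also chosen after seeing the data, the log2 fold change changed sign for Adgre1 (0.250), Cd68 (0.628), Csf1r (0.172), Lyz2 (0.353), Mertk (-0.365), Trem2 (0.069), C1qa (0.599) and Folr2 (0.341), and 0 of all genes were called higher and 0 lower. The cause was not tested.

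Over all genes 2093 were higher and 968 lower in edgeR. With total counts alone 1258 were higher and 3752 lower, and the median log2 fold change of all genes moved from -0.17 to -0.78 and that of the 10 genes from -0.60 to -1.13. DESeq2 called 2534 lower, a minimum of 10 counts in every library 1512, and the thresholds of the study, applied to edgeR, 2161. Applied to DESeq2, an alternative chosen after seeing the data, these thresholds gave 1 of the 10 genes lower, and 2158 higher and 2703 lower over all genes. On log2(FPKM + 1) 4809 were lower, and on log2(FPKM + 0.1) 1391 were higher and 4777 lower. When 1 library was left out 0 to 2810 were higher and 0 to 1971 lower, with 0 and 0 without vehicle library 2 and 1 and 0 without rebamipide library 2. No label says whether equal replicate numbers mark paired animals. The deviations of same-numbered libraries from their group means correlated at -0.031, -0.036 and -0.007, which does not settle whether the animals were paired. With the replicate number as a block, 0 of the 10 genes were called, 1432 of all genes were higher and 855 lower, and Mrc1 was at -1.732 (adjusted p = 0.209, edgeR).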
